A study of Mus musculus with 12 samples.

Results

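Pan retinal ganglion cell (RGC) markers are genes whose RNA labels most or all ganglion cells of the mouse retina. The 7 markers described here are Sncg, Uchl1, Thy1, Rbpms, Rbpms2, Slc17a6 and Nrn1. They were found in the gene tables by their Ensembl identifiers, 1 identifier per symbol, among 54532 identifiers in all, of which 34538 had a count in some library. All 7 passed the filter on low counts that left 18299 genes for testing. The 12 libraries came from retinas of wild type C57BL/6 mice aged 13 weeks, with 3 libraries for each of 4 groups. SHAM mice were the controls, and MOG mice were immunized with a myelin oligodendrocyte glycoprotein peptide in complete Freund's adjuvant with pertussis toxin, which induces experimental autoimmune encephalomyelitis with optic neuritis. GB20 and GV16 mice received the same immunization and were then needled repeatedly under anesthesia from 3 weeks after it, either at the GB20 acupoint or at the nearby GV16 acupoint used as a control site. The mice were female and retinas were taken 5 weeks after immunization. Each group had 2 or 3 mice in an experiment that was carried out 3 times, and the methods speak of sequenced RNA by group, without saying how many mice 1 library holds. The sources used here also do not say whether SHAM mice received adjuvant, pertussis toxin or anesthesia, and the p-values below measure only the spread between these libraries.

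RGCs are the output neurons of the retina, and their axons form the optic nerve, where inflammation attacks myelin in optic neuritis. They are a small minority of retinal neurons, so a transcript used mainly by RGCs is diluted in whole-retina RNA by the far more numerous rods and other cells. The markers do unlike jobs: Rbpms and Rbpms2 are RNA-binding proteins that recognize transcripts through an RNA recognition motif, Sncg (gamma-synuclein) is a small neuronal protein of the cytoplasm and axon, Uchl1 is a ubiquitin C-terminal hydrolase, Thy1 and Nrn1 (neuritin) are proteins tied to the cell surface by a lipid anchor, and Slc17a6 (VGLUT2) loads glutamate into synaptic vesicles. In a whole-retina library, fewer cells of a type and less RNA per cell cannot be told apart.

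Library depth was narrow, with total counts from 15860278 to 19194280, and no library was left out. Levels between libraries are given as CPM, the count divided by the scaled library size, and levels between genes as FPKM, which are also divided by gene length. The retina label was checked with markers of its neurons. In every library, 9 rod genes together reached at least 54540 CPM, 8 bipolar genes at least 1250 CPM and 10 amacrine genes at least 912.6 CPM. Small departures touched 4 libraries, replicate 2 of each group. Lens genes summed to 10.06 CPM in SHAM replicate 2 and 6.75 CPM in GB20 replicate 2 against at most 1.54 CPM in the other libraries, and oligodendrocyte genes summed to 76.2 CPM in MOG replicate 2 against 39.7 to 49.2 CPM elsewhere. Pigment epithelium genes summed to 44.8 CPM in GV16 replicate 2, against 18.7 and 27.7 CPM in the other libraries of its group.

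On the GRCm38 genome (mm10 in the submitters' processing notes) with GENCODE vM21 names, the 7 genes lie on 6 chromosomes, and all are protein coding. Sncg lies on the minus strand at chr14:34370274-34374789 with 1 annotated transcript and 852 bases of exon, the shortest of the group. Rbpms, also on the minus strand, is the longest at chr8:33782643-33929863, with 15 transcripts and 6556 bases of exon. Its paralog Rbpms2 is at chr9:65629648-65660528 on the plus strand, on the same chromosome as Thy1 at chr9:44043384-44048579 (plus). Slc17a6 lies at chr7:51622006-51671119 (plus), Uchl1 at chr5:66676091-66687234 (plus) and Nrn1 at chr13:36725361-36735131 (minus). Exons of 2 markers overlap a gene on the other strand, and the library kit does not mark strand, so reads there cannot be told apart. For Uchl1, 18.1% of the exon bases are shared with the antisense gene Uchl1os, which had at most 0.24 CPM in any library. For Nrn1, 22.3% are shared with Fars2, which had 12.3 ± 1.15 CPM in SHAM and 10.2 ± 1.39 CPM in MOG (SD, n = 3), a difference that did not pass the test (edgeR quasi-likelihood test, Benjamini-Hochberg adjusted p = 0.361).

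A stretch before the annotated RefSeq start is shown where available, because the markers moved together across libraries, as described below. The RefSeq table used here (GRCm38.p6) holds 4 of the 7 markers: Sncg, Uchl1, Rbpms2 and Slc17a6. For each, 120 bases that lie upstream of the RefSeq start and in no exon of the gene itself are printed 5′ to 3′ on the gene's strand, with letters of a GC box (GGGCGG, either strand) in capitals. The Sncg stretch is chr14:34374790-34374909 (minus) and ends 120 bases before the RefSeq start. That of Uchl1 is chr5:66675971-66676090 (plus) and ends 30 bases before its RefSeq start. The Rbpms2 stretch is chr9:65630439-65630558 (plus) and ends 23 bases before its RefSeq start, inside the GENCODE span of the gene given above. That of Slc17a6 is chr7:51621710-51621829 (plus), before the first of its 2 listed starts.
Sncg: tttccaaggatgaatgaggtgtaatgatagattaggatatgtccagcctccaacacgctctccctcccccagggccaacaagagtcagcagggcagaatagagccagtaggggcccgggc
Uchl1: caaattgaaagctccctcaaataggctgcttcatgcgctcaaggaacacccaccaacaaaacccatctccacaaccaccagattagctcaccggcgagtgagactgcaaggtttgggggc
Rbpms2: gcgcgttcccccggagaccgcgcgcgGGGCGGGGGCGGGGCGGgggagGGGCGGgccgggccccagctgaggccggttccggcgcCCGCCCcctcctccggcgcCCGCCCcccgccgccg
Slc17a6: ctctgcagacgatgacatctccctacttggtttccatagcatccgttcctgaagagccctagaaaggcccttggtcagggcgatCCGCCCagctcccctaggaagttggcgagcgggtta
Rbpms2 holds 6 GC boxes, some of which overlap each other, in a stretch with 90.0% G and C, Slc17a6 holds 1, and the Sncg and Uchl1 stretches hold none. Of all 32851 RefSeq stretches, taken as the 120 bases directly before each start, 26.5% hold a GC box, and the median share of G and C was 54.2%. Sncg, Uchl1 and Slc17a6 lie near that median, at 55.0%, 52.5% and 57.5%. A TATA box (TATAAA, 6.34% of all), a CCAAT box (CCAAT, 21.3%), a homeodomain core (TAATTA, 2.09%) and an E box (CACGTG, 3.66%), each read on both strands, were found in none of the 4 stretches. No letters searched here are thus held by all 4, and a match or its absence is only a description of this window.

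Per unit of length the markers formed a high and a low group. In SHAM, Sncg stood at 82.4 ± 11.9 FPKM, Uchl1 at 76.0 ± 8.28 FPKM and Thy1 at 52.1 ± 2.49 FPKM (SD, n = 3), and only 1.84%, 2.07% and 3.65% of the genes tested had a higher SHAM mean. The other 4 were several times lower, with Nrn1 at 14.6 ± 0.983 FPKM, Slc17a6 at 12.4 ± 1.21 FPKM, Rbpms2 at 8.58 ± 0.460 FPKM and Rbpms at 4.96 ± 0.607 FPKM. Rbpms thus sits near the middle of the retinal genes, with 47.4% of those tested above it, although its protein is a standard label for RGCs. The libraries of Sncg and Uchl1 overlapped in every group, so these neighbours in the order did not differ beyond their spread, whereas each library of Uchl1 stood above each library of Thy1 in all 4 groups. The ranges of Nrn1 and Slc17a6 overlapped in SHAM, MOG and GV16, and in MOG their means changed places (7.70 ± 1.15 and 8.26 ± 0.983 FPKM). Compared within each library, Nrn1 stood above Slc17a6 in all 3 libraries of SHAM, GB20 and GV16. In all 3 MOG libraries it stood below. Rbpms2 stayed above Rbpms in every group without overlap.

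**Figure D1:**
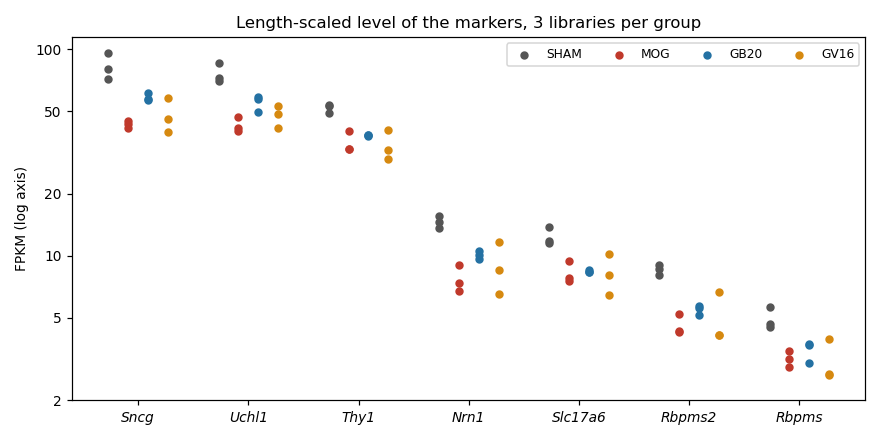
FPKM of the 7 markers (log axis) in each of the 12 libraries, 3 points per group, with genes ordered by their SHAM mean. Sncg and Uchl1 lead at 71.95 to 95.4 and 70.1 to 85.5 FPKM in SHAM, and Rbpms is lowest at 4.54 to 5.65 FPKM.

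The first question was how the markers differ between MOG and SHAM retinas, 5 weeks after immunization. All 7 were lower in MOG, by 32.5% (Thy1) to 47.5% (Sncg), and all 7 passed the test, against 141 of the 18299 genes tested that were called lower (0.771%). In each of the 7, every MOG library also lay below every SHAM library, a pattern found for 1526 genes tested (8.34%). The median log2 fold change was -0.83 for the markers and -0.0023 for all genes tested. Summed over the 7, SHAM had 508.6 ± 34.3 CPM and MOG 309 ± 28.1 CPM (SD, n = 3), or 60.8% of SHAM. All 7 also stand in the study's own list of genes that differ between these libraries, so the count is not independent evidence of the direction.

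Sncg had the largest log2 fold change of the 7 in MOG vs. SHAM, close to that of Nrn1. Its level was 68.6, 82.0 and 61.9 CPM in the SHAM libraries, against 37.0, 38.8 and 35.7 CPM in those of MOG. The MOG libraries lay within a narrow band, far under the lowest SHAM library. The log2 fold change was -0.93 with a standard error of 0.114 (edgeR quasi-likelihood test, adjusted p = 1.48e-04). In the needled groups Sncg stood at 52.85, 49.0 and 48.5 CPM in GB20 and at 49.55, 39.7 and 33.9 CPM in GV16. All 3 GB20 libraries were above all 3 MOG libraries and below all 3 SHAM libraries, while the GV16 libraries spread from below MOG to the level of GB20.

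Uchl1, which cleaves small adducts from ubiquitin and is one of the most abundant proteins of neurons, had 141, 119 and 115.5 CPM in SHAM and 77.0, 66.5 and 68.45 CPM in MOG. The groups were well apart, with the highest MOG library under the lowest SHAM library. The log2 fold change was -0.83 with a standard error of 0.0932, which gave Uchl1 the smallest adjusted p of the 7 (edgeR quasi-likelihood test, adjusted p = 2.47e-05) and rank 9 by p among all genes tested. GB20 libraries had 82.5, 94.4 and 95.5 CPM, and GV16 libraries had 86.5, 80.04 and 68.2 CPM. As for Sncg, GB20 lay wholly above MOG and wholly below SHAM, and GV16 overlapped both MOG and GB20.

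Thy1, a glycoprotein of the surface of many neurons and of T cells, was the marker with the highest CPM and the smallest log2 fold change in MOG vs. SHAM. It stood at 163, 161 and 149 CPM in SHAM and at 121, 99.7 and 98.7 CPM in MOG. MOG replicate 1 was the highest of the MOG libraries but still below every SHAM library. The log2 fold change was -0.57 with a standard error of 0.0950 (edgeR quasi-likelihood test, adjusted p = 0.00242). The GB20 libraries were almost equal, at 115.8, 115.0 and 115.4 CPM, and the GV16 libraries ranged widely, at 122, 98.75 and 88.25 CPM. GB20 therefore lay inside the range of MOG for this gene.

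Nrn1, a small secreted or membrane-tethered protein that promotes neurite growth, had 35.4, 30.9 and 33.1 CPM in SHAM and 20.3, 15.3 and 16.8 CPM in MOG. All MOG libraries were low, and the log2 fold change was -0.92 with a standard error of 0.1502 (edgeR quasi-likelihood test, adjusted p = 0.00293). In GB20 it had 23.0, 23.7 and 21.9 CPM, all above MOG, and in GV16 26.4, 19.35 and 14.8 CPM. The GV16 libraries thus ran from under the lowest MOG library to above the highest GB20 library.

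The RNA-binding pair had unlike log2 fold changes, though the difference between them did not pass its own test, given below. A single pair could not have passed that test after adjustment, so it does not decide the question. Rbpms2 had 22.8, 21.9 and 20.5 CPM in SHAM and 13.1, 10.9 and 10.8 CPM in MOG, with a log2 fold change of -0.90 and a standard error of 0.143 (edgeR quasi-likelihood test, adjusted p = 0.00138). Rbpms had 37.4, 30.0 and 31.0 CPM in SHAM and 22.8, 21.1 and 19.1 CPM in MOG, with a log2 fold change of -0.64 and a standard error of 0.133 (adjusted p = 0.0149). Both genes were lower in every MOG library than in any SHAM library. In GB20, Rbpms2 stood at 14.1, 13.1 and 14.3 CPM and Rbpms at 20.2, 24.4 and 24.6 CPM. In GV16, Rbpms2 stood at 16.8, 10.5 and 10.4 CPM and Rbpms at 25.95, 17.8 and 17.5 CPM. For both, GV16 replicate 1 stood alone above the other 2 libraries of its group.

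Slc17a6, the vesicular glutamate transporter of RGCs, had 74.95, 64.0 and 63.1 CPM in SHAM and 50.8, 42.8 and 41.1 CPM in MOG. The log2 fold change was -0.58 with a standard error of 0.124 (edgeR quasi-likelihood test, adjusted p = 0.0252), the weakest call of the 7. GB20 libraries had 45.6, 45.3 and 46.35 CPM, inside the MOG range, and GV16 libraries had 55.2, 44.2 and 35.2 CPM. No needled group therefore stood apart from MOG for this gene.

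Sncg, Uchl1, Thy1, Rbpms2 and Nrn1 kept adjusted p under 0.05 in MOG vs. SHAM when any 1 of the 12 libraries was left out. Rbpms lost the call when SHAM replicate 1, or either of MOG replicates 2 and 3, was left out, with an adjusted p of up to 0.129 and log2 fold changes from -0.71 to -0.54 over all 12 omissions. Slc17a6 lost it when any of SHAM replicates 1 and 2 and MOG replicates 2 and 3 was left out, with an adjusted p of up to 0.167 and log2 fold changes from -0.68 to -0.50. Both also missed the threshold with limma on FPKM, with adjusted p of up to 0.107 for Rbpms and 0.0972 for Slc17a6.

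**Figure D2:**
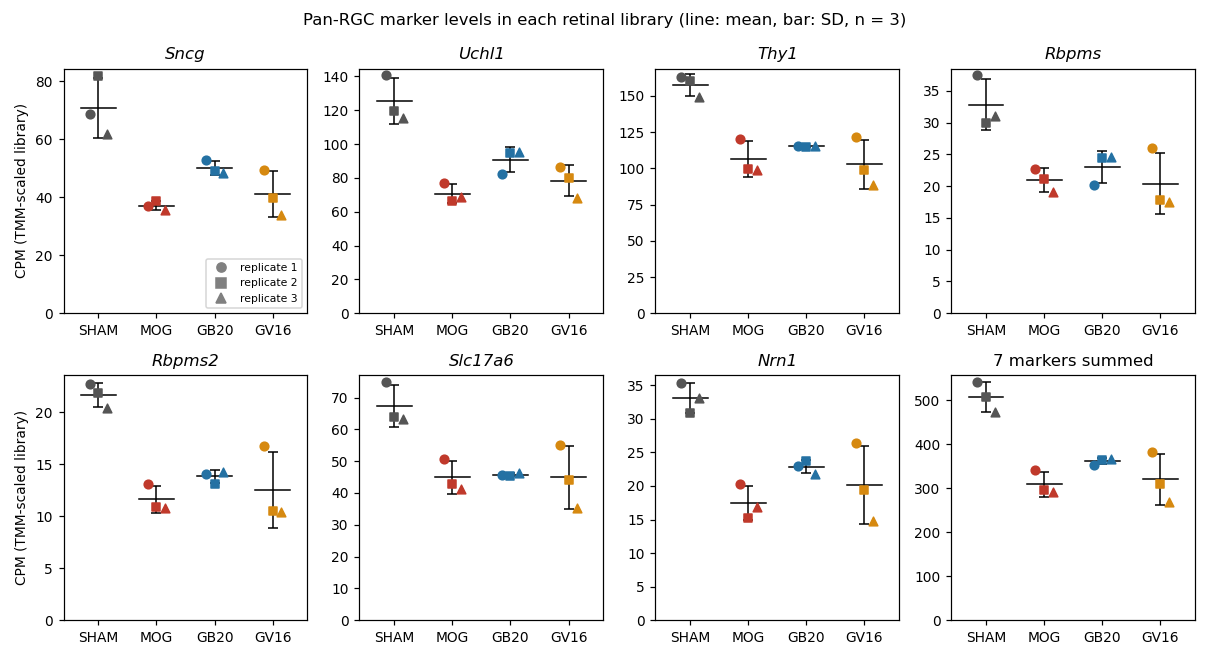
CPM of each marker, and of the 7 summed, in the 12 libraries by group (points by replicate, line at the mean, bar of 1 SD, n = 3), with axes from 0. In each panel the 3 SHAM libraries lie above the 9 immunized ones, and the summed level is 474.2 to 542.9 CPM in SHAM against 268.2 to 382 CPM in the others.

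GB20 needling was compared with immunization alone to ask whether the markers differ when that site is needled. None of the 7 passed the test in GB20 vs. MOG, where 18 genes tested (0.0984%) were called higher. In the same test 3 of the 7 (Sncg, Uchl1 and Nrn1) had an unadjusted p under 0.05. So had 1464 of all genes tested (8.0%), in either direction. All 7 log2 fold changes were above 0, from 0.03 (Slc17a6) to 0.43 (Sncg), with a median of 0.25 against 0.00084 for all genes tested. For Sncg the log2 fold change was 0.43 with a 95% interval of 0.19 to 0.67 (edgeR quasi-likelihood test, adjusted p = 0.228). That of Uchl1 was 0.36 with an interval of 0.17 to 0.56 (adjusted p = 0.185), and that of Nrn1 0.39 with an interval of 0.07 to 0.71 (adjusted p = 0.517). In these 3 genes every GB20 library lay above every MOG library, as in 1456 of all genes tested (7.96%), and in the other 4 the libraries overlapped. The intervals of Thy1 (-0.08 to 0.32), Rbpms (-0.15 to 0.42), Rbpms2 (-0.05 to 0.56) and Slc17a6 (-0.24 to 0.29) held 0. This comparison shares its MOG libraries with MOG vs. SHAM, and all 7 markers stand in the study's list of genes that differ there. Genes listed for a low level in these MOG libraries tend to lean upward against them. The common direction of the 7 may thus be partly built in. Sncg and Uchl1 also stand in the study's own list for GB20 needling, made from these libraries, so their direction is not independent evidence.

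The Sncg and Uchl1 results in GB20 vs. MOG depended on the setting. With only the 6 libraries of these 2 groups fitted, both passed, with adjusted p of 0.00219 and 0.0124 by edgeR and 6.36e-04 and 0.00974 by DESeq2. They also passed by edgeR with no filter on low counts (adjusted p = 7.32e-04 and 0.00341). That fit gave smaller standard errors (0.089 and 0.0808, against 0.115 and 0.0936 with the filter) at nearly the same log2 fold changes. Its calls therefore rest on the smaller spread it assigned. Neither gene passed with DESeq2 on all 12 libraries (adjusted p = 0.0813 and 0.0846), RLE scaling (0.219 and 0.193), limma on FPKM under both pseudocounts (0.407 to 0.436) or the length trend removed (0.264 and 0.410). With the length trend removed the log2 fold changes were 0.37 and 0.30. Without SHAM replicate 2, a library of neither group, Sncg passed with an adjusted p of 0.0421.

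GV16 needling gave no marker a call against MOG, where 30 genes tested (0.164%) were called in either direction. None of the 7 had an unadjusted p under 0.05, against 969 of all genes tested (5.295%). The log2 fold changes lay between -0.05 (Thy1) and 0.21 (Nrn1), and the libraries overlapped in all 7. Set against each other, GB20 and GV16 likewise gave no call among the markers, and 1 gene of all tested was called (0.00546%). Sncg was higher in GB20 than in GV16 by 0.29 on the log2 scale (95% interval 0.05 to 0.53) and Uchl1 by 0.21 (0.02 to 0.41). Each had an unadjusted p under 0.05 and an adjusted p of 0.9999 by the edgeR quasi-likelihood test. An unadjusted p under 0.05 was found for 536 of all genes tested (2.93%). The libraries of GB20 and GV16 overlapped for all 7 markers, and the share of all genes with such overlap was not counted. No marker difference between the needling sites passed the adjustment over all genes tested.

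Against SHAM, the needled groups remained low. In GV16 vs. SHAM all 7 markers passed, with log2 fold changes from -0.79 (Rbpms2) to -0.59 (Slc17a6), where 79 genes tested were called lower (0.432%). In GB20 vs. SHAM only Uchl1 (-0.46, adjusted p = 0.0263), Thy1 (-0.45, adjusted p = 0.0422) and Rbpms2 (-0.65, adjusted p = 0.0452) passed the edgeR quasi-likelihood test, where 33 genes tested were called lower (0.18%). The other 4 had log2 fold changes from -0.56 to -0.50 and adjusted p from 0.0632 to 0.154. With the replicate number as a block all 7 passed, with adjusted p of 0.00784 (Sncg), 0.00197 (Slc17a6), 0.0235 (Nrn1) and 0.0498 (Rbpms) for these 4. Same-numbered SHAM and GB20 libraries deviated together from their group means, with correlations of 0.112, 0.352 and 0.231 over genes. The block spans all 4 groups, however, where such correlations had a median of 0.04, so the numbers are not established as a pairing. In both comparisons every needled library lay below every SHAM library for all 7 markers, as in 7.6% of the genes tested for GV16 and 7.09% for GB20. The number of markers called in GB20 vs. SHAM was the least stable count: it was 0 without SHAM replicate 1, GB20 replicate 1 or GB20 replicate 2, 1 without SHAM replicate 2, GB20 replicate 3 or either of MOG replicates 2 and 3, 6 without GV16 replicate 3 and 7 without GV16 replicate 1. In GV16 vs. SHAM it was 3 without SHAM replicate 1, GV16 replicate 2 or GV16 replicate 3, 5 or 6 in 7 other omissions, and 7 only without MOG replicate 1 or GV16 replicate 1.

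**Figure D3:**
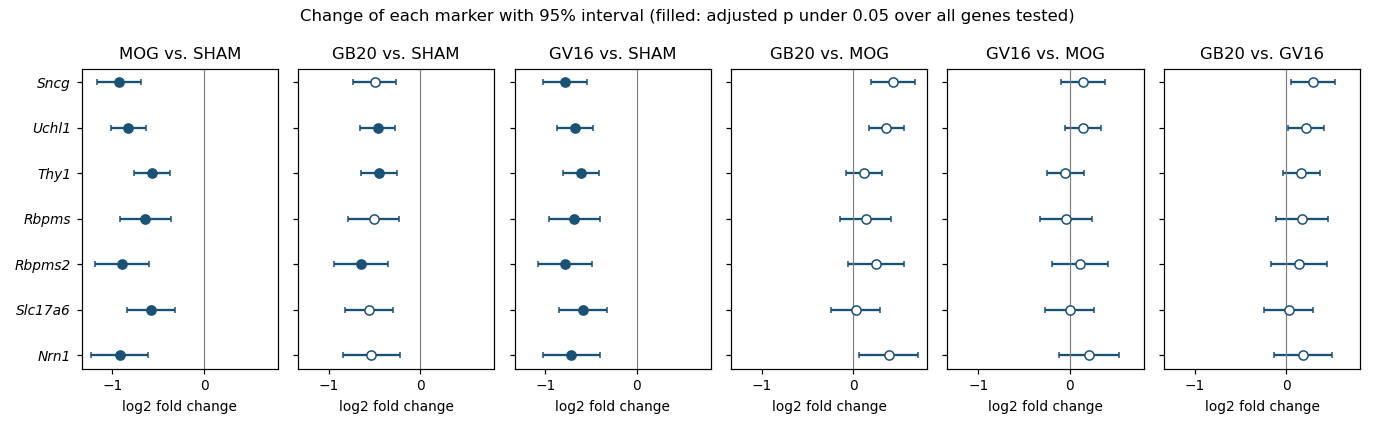
Log2 fold change of each marker with its 95% interval in 6 comparisons (filled points have an adjusted p under 0.05 over all genes tested). Intervals lie wholly under 0 in the 3 comparisons with SHAM, and in GB20 vs. MOG those of Sncg, Uchl1 and Nrn1 lie above 0 without passing the adjusted test.

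Taken as 1 set, the 9 immunized libraries had 64.95% of the summed SHAM level, at 330 ± 40.2 CPM (SD, n = 9). For each of the 7 markers all 9 lay below all 3 SHAM libraries, which held for 352 genes tested (1.92%). All 7 passed the test of the mean of the 3 immunized groups against SHAM, where 199 genes (1.09%) were called lower, with log2 fold changes from -0.78 (Rbpms2) to -0.54 (Thy1). Rbpms and Slc17a6 lost this call without SHAM replicate 1, with adjusted p of 0.0638 and 0.0711 by the edgeR quasi-likelihood test.

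Whether the markers changed by unequal amounts was tested with the log2 ratio of 2 markers within each library, which does not depend on library scaling, in 9 immunized against 3 SHAM libraries. None of the 21 pairs passed after Benjamini-Hochberg adjustment, and 2 had an unadjusted p under 0.05. Thy1 over Rbpms2 was higher in immunized libraries by 0.24 on the log2 scale (2-sided exact permutation test over 220 splits, p = 0.0136, adjusted p = 0.286). Rbpms2 over Slc17a6 was lower by a difference of -0.21 (exact permutation p = 0.0364, adjusted p = 0.382), and Rbpms over Rbpms2 differed by 0.18 (exact permutation p = 0.0682, adjusted p = 0.477). The smallest p these splits allow is 0.00455, so a single pair could not have passed the adjustment over 21, and unequal change was not detectable here.

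Libraries of 1 group were also ordered alike by the markers. SHAM replicate 1 was the highest SHAM library for 6 of the 7 and MOG replicate 1 the highest MOG library for 6. GV16 replicate 1 was the highest and GV16 replicate 3 the lowest of its group for all 7. GB20 showed no such order, and its libraries were close, with a summed level of 354.0 to 366.6 CPM and a coefficient of variation of 1.89%, against 17.96% in GV16, 9.10% in MOG and 6.75% in SHAM. The spread of GV16 was widest for Rbpms2 (29.1%) and Nrn1 (28.9%) and that of GB20 smallest for Thy1 (0.335%). Across the 12 libraries, which share the group differences and the same scaling, Pearson's r of log2 CPM between 2 markers ran from 0.843 (Sncg and Rbpms) to 0.974 (Thy1 and Rbpms2) with a median of 0.931. Within groups, after subtracting each group mean, the 21 values were all above 0, from 0.36 (Sncg and Uchl1) to 0.942 (Thy1 and Slc17a6), with a median of 0.773. GV16, with the widest spread of the summed level, weighs heavily in these values. Such values were not computed for other pairs of genes.

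**Figure D4:**
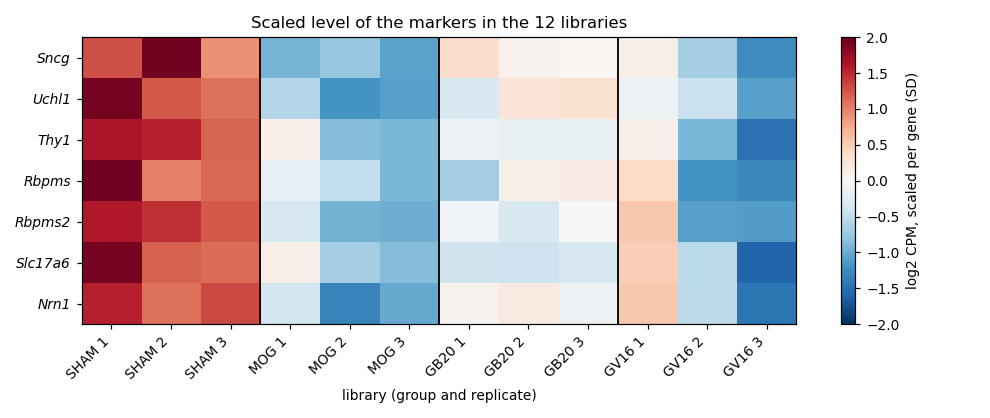
Level of each marker in the 12 libraries as log2 CPM scaled per gene to SD units (red above and blue below the gene's mean, colour scale from -2 to 2). The 3 SHAM columns are red throughout, GV16 replicate 3 is blue for all 7 markers, and most GB20 cells lie near 0.

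The genes whose levels followed the markers most closely over the 12 libraries were sought among 16044 other genes with a mean of at least 1 CPM, by Pearson's r with the mean of the 7 scaled profiles. Nefl, the light neurofilament chain of axons, came first (r = 0.985), before Pou4f1, a POU-domain transcription factor that is itself used as an RGC label (0.981). Next were Rgs4, a regulator of G protein signalling (0.977), Cend1 (0.974) and Sult4a1, a sulfotransferase-like protein of neurons (0.974). Nefh, the heavy neurofilament chain (0.968), Chrna6, a nicotinic receptor subunit (0.966), Bend6 (0.966), Kcnd2, an A-type potassium channel (0.966), and Nsg2 (0.966) completed the first 10. Their levels in MOG vs. SHAM differed by log2 fold changes of -0.31 (Nsg2) to -1.03 (Pou4f1), and Nefl, for one, had 280.2 ± 15.3 CPM in SHAM and 146.1 ± 15.1 CPM in MOG (SD, n = 3). These correlations describe 12 libraries that fall into groups, and libraries of 1 group share immunization and treatment. The genes were picked for following a profile that was highest in the SHAM libraries. Their lower level in MOG was thus built into the choice and is not separate evidence.

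Other genes typical of RGCs were read from a list of 21, all tested. The list was chosen with earlier results of these data known. In MOG vs. SHAM 13 were called lower, beside 0.771% of all genes tested, and none higher. The median log2 fold change was -0.59. The largest differences among those called were in Isl2, a LIM-homeodomain transcription factor of RGC subtypes (-1.14), Nefm, the medium neurofilament chain (-1.03), Pou4f1 (-1.03) and Nefl (-0.94), all by the edgeR quasi-likelihood test with adjusted p of 5.70e-04, 0.0117, 0.00239 and 3.48e-05. None of the 21 was called in GB20 vs. MOG, GV16 vs. MOG or GB20 vs. GV16. Against SHAM 11 were called lower in GV16 and 5 in GB20, and 15 in the mean of the immunized groups. The shares of all genes tested called lower there were 0.432%, 0.18% and 1.09%. The other 8 of the 21 in MOG vs. SHAM had log2 fold changes below 0, down to -0.66, without passing the test.

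Relatives of the markers that are used by other cells showed smaller differences. Of 9 listed, 8 were tested and none was called in any of the 7 comparisons, while Nrn1l, the paralog of Nrn1, stayed under 1 CPM in every library. Sncb (beta-synuclein) had a log2 fold change of -0.28 in MOG vs. SHAM (edgeR quasi-likelihood test, adjusted p = 0.0917), beside -0.93 for Sncg. The hydrolases Uchl3, Uchl5 and Bap1 had -0.23, -0.11 and -0.07, beside -0.83 for Uchl1. Slc17a7 (VGLUT1), the transporter of photoreceptors and bipolar cells, stood at 290.1 FPKM in SHAM, above every marker, with a log2 fold change of -0.06, and Slc17a8 (VGLUT3) and the inhibitory transporter Slc32a1 had 0.02 and 0.00. The 95% intervals of the 3 transporters were -0.21 to 0.09, -0.22 to 0.26 and -0.17 to 0.17, beside -0.84 to -0.32 for Slc17a6.

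Lists of genes typical of other retinal cells were read beside the markers. In MOG vs. SHAM none of the 10 amacrine, 4 horizontal, 8 bipolar, 9 rod or 10 cone genes was called, and the medians of the log2 fold changes were 0.02, -0.04, 0.02, 0.01 and -0.0042. Amacrine cells are the most relevant of these, since some lie in the ganglion cell layer, and their summed level ran from 1023 to 1117 CPM in SHAM and from 1019 to 1173 CPM in MOG. Horizontal cell genes summed to at least 90.5 CPM in SHAM and at most 90.5 CPM in MOG. Of 8 Müller cell genes only the water channel Aqp4 was called, and it was higher, beside 104 of the 18299 genes tested called higher. The Müller list as a whole leaned the other way, with a median log2 fold change of -0.07. Its genes summed to 3712 to 3935 CPM in SHAM and 3320 to 3726 CPM in MOG, ranges that overlapped. Blood vessel genes (7 tested), erythrocyte genes (3 of 5 tested), oligodendrocyte genes (3 of 7 tested) and the 1 lens gene tested of 7 had no call in MOG vs. SHAM.

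Summed levels of some non-neuronal lists were higher where the markers were lower. Astrocyte genes summed to 38.1 to 46.3 CPM in SHAM and 71.6 to 75.7 CPM in MOG, with Gfap, their intermediate filament protein, called higher and the other 3 of the 4 genes not called. The median log2 fold change of the astrocyte list was 0.17, and its lowest gene was at -0.38. Microglia genes summed to 23.3 to 32.1 CPM in SHAM and 37.9 to 44.3 CPM in MOG, and Csf1r and C1qa were called higher among the 9 tested, with a list median of 0.38 on the log2 scale and Aif1 under 1 CPM throughout. Over all 18299 genes tested, 104 were called higher in MOG, with Gfap, Csf1r and C1qa among them. Pigment epithelium genes summed to 17.5 to 20.9 CPM in SHAM and 26.6 to 37.4 CPM in MOG with no call among 8 tested, a list median of 0.23 and a lowest gene at -0.20. T cell genes, which matter because T cells can carry Thy1, summed to 0.908 to 1.41 CPM in SHAM and 1.05 to 2.28 CPM in MOG, and 6 of the 7 (Cd3d, Cd3e, Cd3g, Cd4, Cd8a and Trac) were under 1 CPM in every library. The part of these cells in the lower marker levels was not tested.

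**Figure D5:**
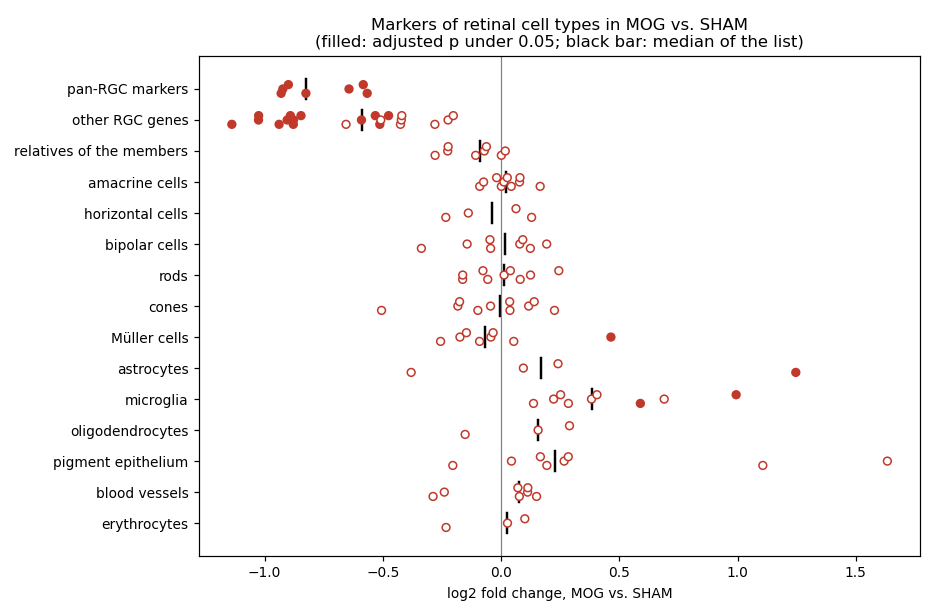
Log2 fold change in MOG vs. SHAM of every tested gene in 15 lists (the T cell and lens lists, with 1 tested gene each, are not drawn), 1 point per gene (filled where the adjusted p was under 0.05), with the median of each list as a black bar. The pan-RGC markers and other RGC genes lie to the left of 0, with medians of -0.83 and -0.59, and the lists of other retinal neurons spread around 0.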

How the data were processed

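Whole-retina RNA was read from 12 libraries, grouped by their labels as SHAM, MOG, GB20 and GV16 (3 each). The authors enriched polyadenylated RNA, aligned reads with HISAT2 2.0.5 (mm10 in the submitters' processing notes) and used FeatureCounts to assign them to genes. The deposited counts are whole numbers with no scaling. FPKM values, which the authors made from count, gene length and library size, were deposited beside them. For annotation release and strand setting, the entry is: not given in the sources used here. The columns of the tables all belong to these 12 libraries.

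Counts were tested with edgeR 4.0.16 in R 4.3.3: expression filter by group, TMM scaling, robust quasi-likelihood fit of all 12 libraries with 1 mean per group (8 residual degrees of freedom), and Benjamini-Hochberg adjustment over the 18299 genes tested. A gene was called at an adjusted p under 0.05. DESeq2 1.42.0, limma 3.58.1 on log2(FPKM + 1) and on log2(FPKM + 0.1), RLE scaling, no filter, fits of 2 groups only, removal of the trend with gene length, a replicate block and omission of each library were alternatives. Some of the fits were tried on simulated counts for MOG vs. SHAM only. These counts held no replicate effect and no trend with gene length, so the block and length corrections were not checked in their intended use. RLE scaling, the fit with no filter, limma on log2(FPKM + 0.1) and the other comparisons were not simulated. CPM values used TMM library sizes. FPKM levels were compared per gene with no test.

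The markers and gene lists were chosen with earlier results of these data known, and the markers stand in the study's tables, so no list was tested as a set. Genes named were the 7 markers, every relative on a list except 1 that is not reported here, the 4 called RGC genes with the largest log2 fold change in MOG vs. SHAM and the 10 genes most correlated with the markers. Called genes of the other cell type lists were named after their values were seen. Total counts of 15860278 to 19194280 per library set the precision of low genes.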

Additional observations from a re-analysis of the deposited data

How the results depend on the processing

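Over all alternatives, 5 to 7 markers were called lower in MOG vs. SHAM and in immunized vs. SHAM, and 0 in GV16 vs. MOG and GB20 vs. GV16. In GB20 vs. MOG the count of 0 became 2 with DESeq2 or edgeR on the 2 groups and with no filter, 1 with the replicate block, and 0 to 1 over the omissions of 1 library. In GB20 vs. SHAM the count of 3 became 4 with the length trend removed, 5 with DESeq2 on 12 libraries, 7 with DESeq2 on the 2 groups, 6 with edgeR on the 2 groups, 7 with no filter, 7 with the replicate block with or without the length trend removed, 0 with limma on FPKM under both pseudocounts, and 0 to 7 over the omissions. In GV16 vs. SHAM the count of 7 became 5 with the length trend removed, 3 with edgeR on the 2 groups and with limma on FPKM under both pseudocounts, and 3 to 7 over the omissions. The counts with no filter came from the fit with smaller standard errors described above. The direction turned for some markers in the comparisons without SHAM, none of which was called there. Slc17a6 in GV16 vs. MOG became 0.0014 with no filter and 0.0033 with the length trend removed. Over the omissions, Slc17a6 ran from -0.0363 to 0.13 in GB20 vs. MOG. In GV16 vs. MOG the ranges were -0.0153 to 0.26 (Sncg), -0.19 to 0.0527 (Thy1), -0.25 to 0.0616 (Rbpms), -0.15 to 0.23 (Rbpms2), -0.18 to 0.15 (Slc17a6) and -0.0347 to 0.39 (Nrn1). In GB20 vs. GV16 they were -0.12 to 0.21 (Slc17a6) and -0.0013 to 0.42 (Nrn1). The cause of these shifts was not tested. Each omission also left fewer libraries.

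Groups share replicate numbers, which the labels tie to nothing else. The libraries with small departures in lens, oligodendrocyte or pigment epithelium genes, described above, all bear the number 2. Pigment epithelium genes summed highest in replicate 2 of each group, at 20.9 (SHAM), 37.4 (MOG), 34.3 (GB20) and 44.8 CPM (GV16). What this shared number stands for was not tested. The study's methods speak of an experiment done 3 times, and whether the numbers mark those repeats was not stated. Deviations of same-numbered libraries from their group means correlated at -0.10 to 0.35 (median 0.04 over 18 pairs, 16051 genes), against a median of -0.03 for other numbers. Over all groups 6 of 18 pairs were over 0.1, and the numbers were not taken as pairing there. Between SHAM and GB20 all 3 were over 0.1, though SHAM replicate 1 correlated slightly better with GB20 replicate 3 (0.1155) than with replicate 1 (0.112). With the replicate block, Sncg passed in GB20 vs. MOG (adjusted p = 0.0473, edgeR quasi-likelihood test) but not with the length trend also removed (0.111, log2 fold change 0.37), and the markers called in GB20 vs. SHAM numbered 7.

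With 3 libraries per group, the spread between libraries limited precision, and the interval of Slc17a6 in GV16 vs. MOG, -0.27 to 0.26 on the log2 scale, shows its size. Counts over all genes also moved with the setting. Genes called lower numbered 45 to 287 in MOG vs. SHAM (141 as reported), 4 to 148 in GB20 vs. SHAM (33), 12 to 199 in GV16 vs. SHAM (79) and 56 to 367 in immunized vs. SHAM (199). Genes called higher in GB20 vs. MOG numbered 2 to 71 (18), and calls in either direction 5 to 73 in GV16 vs. MOG (30) and 0 to 8 in GB20 vs. GV16 (1).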
